A study of Mus musculus with 6 samples.

Results

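The 5 genes described here encode a cell-surface protease pathway of epithelia: the serine proteases matriptase (St14) and prostasin (Prss8), their inhibitors HAI-1 (Spint1) and HAI-2 (Spint2), and the protease-activated receptor PAR2 (F2rl1). They were taken by name, without regard to their values, from 34989 genes with a transcript in the data, and all 5 were found and passed the filter on low counts. Their RNA was measured by sequencing polyadenylated RNA from mouse handpads (E14.5), the plates of the forelimb in which the digits form. The groups were 3 wild-type and 3 Grhl3 knockout (Grhl3KO) libraries, all from C57BL/6 embryos, and the labels name no treatment. Grhl3 encodes a grainyhead-like transcription factor of the surface epithelium, and the title of the series asks about this epithelium while digits separate. The labels do not say which part of Grhl3 was deleted, whether the loss was limited to a tissue, or whether a library came from 1 embryo or from a pool, so the p-values measure only the spread between these libraries, which may be technical in part.

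Matriptase spans the membrane and prostasin is held to it by a lipid anchor, and in epidermis each can take part in activating the other from its inactive precursor. HAI-1 and HAI-2 are membrane proteins whose Kunitz domains block the active sites of these enzymes. PAR2 is a G protein-coupled receptor that is switched on when a protease, matriptase among them, cuts its outer end and unmasks a built-in ligand. The pathway is known for barrier formation in the epidermis and for its place in the surface ectoderm during neural tube closure, a process that also fails in mice without Grhl3.

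The libraries held 38052692 to 56037639 estimated counts, and the genes described here had between 133 (Prss8, wild-type replicate 1) and 2882 (Spint2, knockout replicate 3) counts in a library. Grhl3 itself was lower in every knockout library, with 14.3, 45.7 and 18.5 CPM (counts scaled to library size, with TMM factors) in wild-type and 3.11, 2.86 and 2.95 CPM in knockout libraries (log2 fold change -3.14, SE 0.41, adjusted p = 0.0221, edgeR). The forelimb gene Tbx5 and the distal limb genes Hoxa13 and Hoxd13 had wild-type means of 133, 64.5 and 285 CPM, so the labelled tissue carried its markers. The hindlimb genes Tbx4 and Pitx1 had lower wild-type means of 22.6 and 2.98 CPM, so Tbx4 was not absent. Y-linked genes summed to 1.96 TPM in wild-type replicate 1 and to 1.15 to 1.61 TPM in the knockout libraries, against 150 and 173 TPM in wild-type replicates 2 and 3. Wild-type replicate 1 also had the shortest transcripts on average, weighted by counts (3148 bases, the others 3347 to 3625). Liver genes (Alb, Afp and 5 others) summed to 37.8 and 74.1 TPM in knockout replicates 1 and 2 and to 4.13 to 6.87 TPM in the other libraries.

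The promoter sequences of the inhibitors are shown as the windows in which a grainyhead motif was searched. Of the 5 genes, Spint1 and Spint2 were matched in the RefSeq promoter table (GRCm38.p6), and the 250 bases before each start site are printed 5′ to 3′ on the strand of the gene. Grainyhead factors bind the palindrome AACCGGTT, and the capitals mark matches to its inner part ACCGGT or to its left part AACCGG. Spint1 lies on the plus strand at chr2:119237110-119237359 and Spint2 on the minus strand at chr7:29281978-29282227.
Spint1: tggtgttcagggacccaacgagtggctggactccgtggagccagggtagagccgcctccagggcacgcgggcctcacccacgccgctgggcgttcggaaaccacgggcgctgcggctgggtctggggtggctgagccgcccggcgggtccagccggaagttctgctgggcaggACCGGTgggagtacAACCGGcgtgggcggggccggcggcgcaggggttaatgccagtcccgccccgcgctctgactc
Spint2: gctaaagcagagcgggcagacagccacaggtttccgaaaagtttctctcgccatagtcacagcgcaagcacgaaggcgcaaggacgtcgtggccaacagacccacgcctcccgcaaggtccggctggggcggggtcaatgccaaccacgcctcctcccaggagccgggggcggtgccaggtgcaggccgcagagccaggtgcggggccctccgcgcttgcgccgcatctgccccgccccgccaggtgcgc
Neither window held AACCGGTT or the looser AACNGGTT. Of the shorter motifs, Spint1 held ACCGGT starting 77 bases before the start site and AACCGG starting 63 bases before it, and Spint2 held neither. On both strands of 32851 promoter windows of the same length, ACCGGT was present in 1.86%, AACCGG in 5.62%, AACCGGTT in 0.116% and AACNGGTT in 1.79%. Every AACCGGTT holds both shorter motifs, which overlap in it. A match is a run of letters and not a measured binding site. The shorter motifs were chosen after these windows had been seen, so the difference between the windows was fixed by that choice and nothing is read from it.

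The receptor gene rose in the knockout. F2rl1 (ENSMUSG00000021678.9, chromosome 13, 95511732 to 95525227, minus strand, mm10) measured 5.57, 5.42 and 4.88 CPM across wild-type replicates and 20.2, 12.0 and 15.8 CPM across knockout replicates. The wild-type libraries were close together, and every knockout library was above all of them. The level was 3.02-fold higher in the knockout (95% interval 2.21 to 4.13; log2 fold change 1.60, SE 0.20, n = 3 per group, adjusted p = 0.0182, edgeR quasi-likelihood test with Benjamini-Hochberg adjustment over 16938 genes). F2rl1 was the only gene of the 5 to pass at an adjusted p under 0.05, where 0.431% of all tested genes passed in either direction, 0.348% higher and 0.0827% lower in the knockout. It missed the threshold in fits that omitted a single library, namely wild-type 2 (adjusted p = 0.0644, edgeR), wild-type 3 (0.149), knockout 1 (0.0657) or knockout 3 (0.0759), at log2 fold changes of 1.39 to 1.61. Calls over all genes also dropped in these 4 fits, from 73 to 45, 10, 17 and 22 in the same order. Why F2rl1 lost its call was not tested.

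Matriptase was higher in the knockout by about the same factor as its inhibitor HAI-1, and neither passed the test. St14 (ENSMUSG00000031995.9, chromosome 9, 31089402 to 31131853, minus strand) measured 12.3, 21.1 and 16.1 CPM across wild-type replicates and 40.8, 33.2 and 34.6 CPM across knockout replicates. The groups did not overlap, and the level was 2.19-fold higher (95% interval 1.62 to 2.96; log2 fold change 1.13, SE 0.19, n = 3 per group, adjusted p = 0.0590, edgeR). Prss8 (ENSMUSG00000030800.10, chromosome 7, 127925716 to 127930104, minus strand) measured 3.51, 5.92 and 3.82 CPM across wild-type replicates and 5.07, 4.82 and 5.57 CPM across knockout replicates. Its groups overlapped, with the highest value in wild-type replicate 2, and its fold was 1.16 (95% interval 0.819 to 1.66, adjusted p = 0.955, edgeR). That interval leaves room for a rise of 1.66-fold, so it does not show that prostasin RNA stayed the same.

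Spint1 (ENSMUSG00000027315.13, chromosome 2, 119237362 to 119249527, plus strand) measured 10.5, 16.8 and 12.8 CPM across wild-type replicates and 30.9, 25.9 and 26.2 CPM across knockout replicates. As for St14, knockout replicate 1 was highest, wild-type replicate 1 lowest, and the groups did not overlap. The fold was 2.07 (95% interval 1.57 to 2.74; log2 fold change 1.05, SE 0.18, n = 3 per group, adjusted p = 0.0590, edgeR). Spint2 (ENSMUSG00000074227.12, chromosome 7, 29256323 to 29281912, minus strand) measured 45.1, 52.6 and 38.9 CPM across wild-type replicates and 53.6, 55.3 and 52.4 CPM across knockout replicates. Its groups overlapped by a small margin at wild-type replicate 2, and its fold was 1.18 (95% interval 0.981 to 1.42, adjusted p = 0.765, edgeR).

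**Figure D1:**
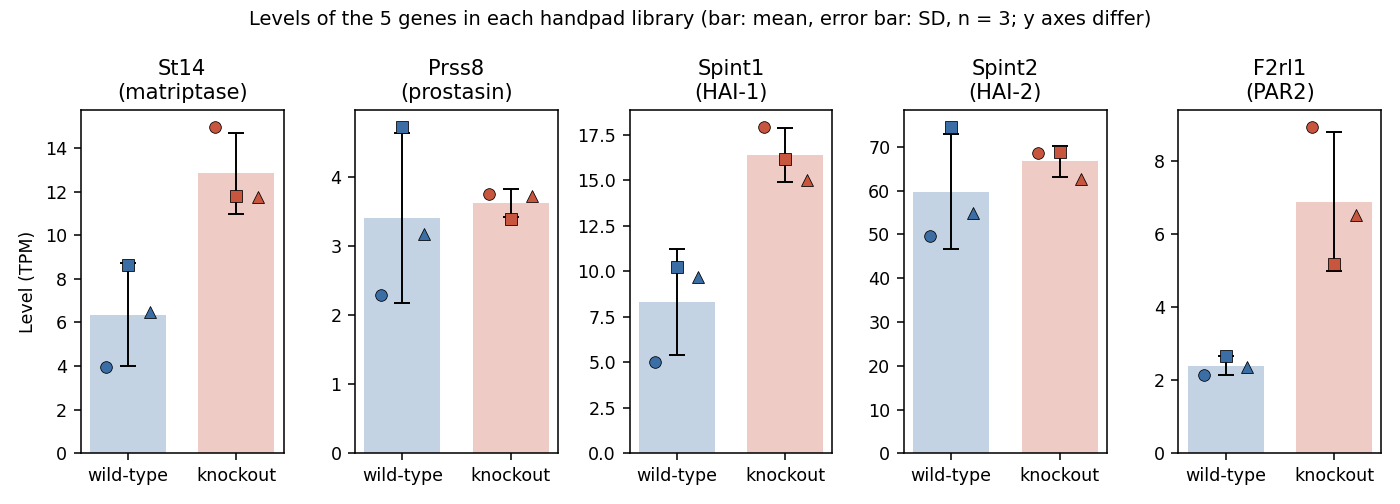
Level in TPM (y axis, a separate scale for each gene) of the 5 genes in each wild-type (blue) and knockout (red) library, with bars at the mean and error bars of 1 SD (n = 3). The knockout points lie above every wild-type point for St14, Spint1 and F2rl1, and among or close to them for Prss8 and Spint2.

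Of the 5 genes, 3 had no overlap between the groups and were higher in the knockout, against 6.77% of all tested genes, and 0 were lower, against 6.16% (12.9% in either direction). The same 3 had an unadjusted p under 0.05, against 3.81% of all genes in that direction, 3.41% in the other and 7.22% in either. The median log2 fold change was 1.05 over the 5 genes and -0.004 over all tested genes. St14 and Spint1 sat close to the threshold, and they passed with DESeq2 (adjusted p = 3.06e-06 and 5.12e-06) and with the likelihood ratio test of edgeR (3.33e-05 and 6.68e-05), tests that called 1.25% and 1.09% of all genes higher and 1.77% and 1.54% in either direction. They also passed without wild-type replicate 1 (0.0231 and 0.0274, edgeR) or wild-type replicate 2 (0.0372 for each), fits that called 206 and 45 of all genes. They did not pass without any other library. They were further from the threshold with limma on log2(TPM + 0.1) (adjusted p = 0.478 for each). With the replicate number as a block they also missed it (0.146 and 0.149, edgeR). Each passed in 7 of 20 alternatives to the main fit. The authors' deposited table, made from the same libraries with a likelihood ratio score, lists F2rl1, St14 and Spint1 with log2 fold changes of 1.59, 1.13 and 1.05 and FDRs of 9.52e-09, 3.53e-05 and 7.67e-05. Prss8 and Spint2 are not among the 941 genes of the authors' deposited table.

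**Figure D2:**
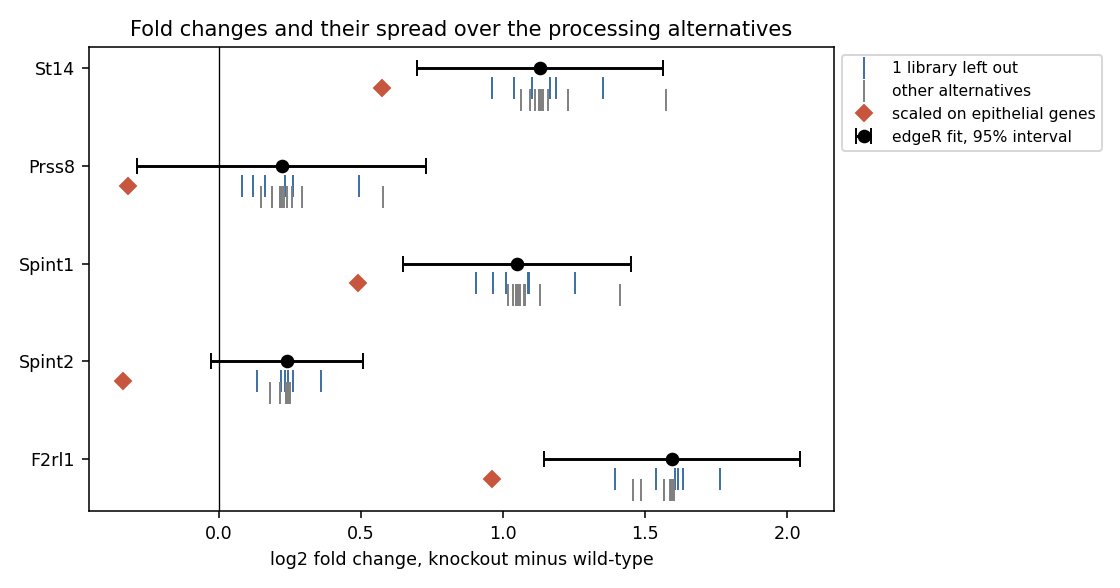
Log2 fold change (x axis, knockout minus wild-type) of each gene, with the edgeR estimate and its 95% interval in black, fits without 1 library as blue ticks, other alternatives as grey ticks and scaling on epithelial genes as a red diamond. St14, Spint1 and F2rl1 lie above 0 in every fit shown, while Prss8 and Spint2 fall to -0.32 and -0.34 with epithelial scaling.

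Levels of different genes were compared in TPM (transcript abundance scaled to the library), which corrects for transcript length. In wild-type the order of the means was Spint2 (59.8 ± 13.2 TPM), Spint1 (8.32 ± 2.89 TPM), St14 (6.36 ± 2.35 TPM), Prss8 (3.40 ± 1.23 TPM) and F2rl1 (2.39 ± 0.258 TPM; SD, n = 3). Spint1 and St14 overlapped over the wild-type libraries, as did St14 and Prss8, and Prss8 and F2rl1. In the knockout the means were 66.7 ± 3.57 TPM for Spint2, 16.4 ± 1.48 TPM for Spint1, 12.8 ± 1.86 TPM for St14, 6.89 ± 1.90 TPM for F2rl1 and 3.62 ± 0.206 TPM for Prss8 (SD, n = 3). The receptor thus stood above prostasin in each knockout library, at 8.94, 5.18 and 6.53 TPM against 3.75, 3.38 and 3.73 TPM, and below it in each wild-type library, at 2.15, 2.66 and 2.37 TPM against 2.30, 4.73 and 3.18 TPM. Spint2 RNA was the most abundant of the 5 in every library, and among 14108 genes with a wild-type mean of at least 1 TPM it stood at percentile 83.8 and F2rl1 at 11.6.

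The ratio of inhibitor to protease RNA was followed in each library. HAI-1 RNA stood at 1.27, 1.19 and 1.49 times matriptase RNA in the wild-type and at 1.20, 1.37 and 1.28 times in the knockout libraries, on the TPM scale. These ratios overlapped, and their means were 1.32 ± 0.160 and 1.28 ± 0.0866 (SD, n = 3). Both inhibitors together stood at 8.76, 6.35 and 6.69 times both proteases in wild-type and at 4.62, 5.61 and 5.02 times in knockout libraries. Every knockout library was below every wild-type library in that second ratio, with means of 7.27 ± 1.30 and 5.08 ± 0.495 (SD, n = 3), and Spint2 supplies most of its numerator. Matriptase over prostasin was 1.72, 1.83 and 2.04 in wild-type and 3.99, 3.48 and 3.15 in knockout libraries, and HAI-2 over HAI-1 was 9.94, 7.28 and 5.66 against 3.82, 4.26 and 4.17. All of these ratios restate the levels of the same genes and are not independent of the fold changes given above. No test was run on them, and no share over ratios of other genes was computed.

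All 10 pairs of the 5 genes were compared by the difference in their log2 TPM ratio between the genotypes, a comparison added after the values had been seen. In 6 pairs the genotypes did not overlap, and these were the pairs that join St14, Spint1 or F2rl1 with Prss8 or Spint2. The pairs share genes and are not independent of the fold changes given above, and no share over pairs of all genes was computed. Their differences ran in size from 0.86 for Spint1 over Spint2 and 0.92 for St14 over Prss8 to -1.34 for Prss8 over F2rl1 (each with an exact two-sided permutation p = 0.1, adjusted p = 0.167 over the 10 pairs). An exact test of 3 libraries against 3 cannot go below 0.1. St14 over Spint1 differed by 0.03 (exact p = 0.9) and Prss8 over Spint2 by -0.03 (exact p = 1). St14 and Spint1 over F2rl1 differed by -0.42 and -0.45 (exact p = 0.2 for each).

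**Figure D3:**
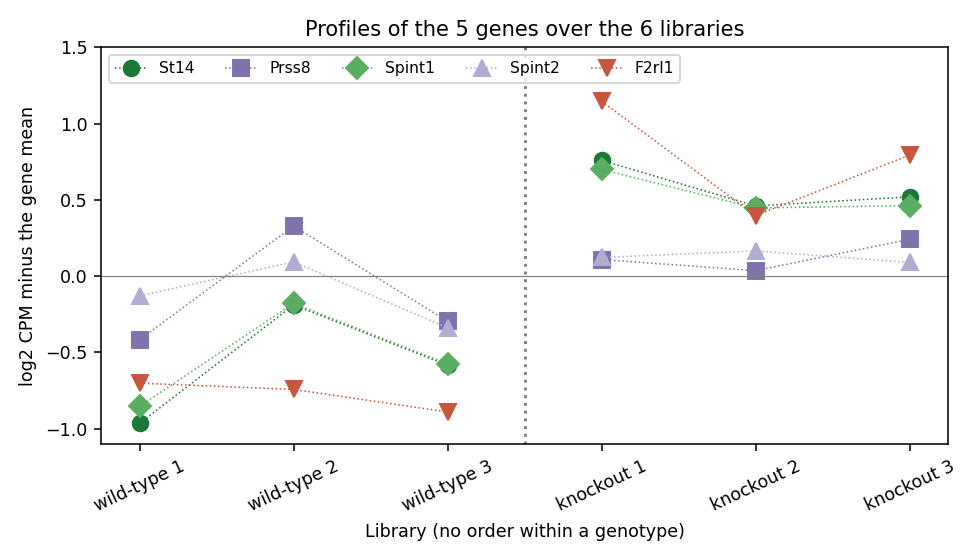
Log2 CPM of each gene minus its own mean over the 6 libraries (y axis) by library (x axis), with dotted lines to guide the eye within a genotype. The St14 and Spint1 points nearly coincide in each library, and F2rl1 spans the widest range, 2.04 on the log2 scale, against 0.50 for Spint2.

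The likeness of St14 and Spint1 was measured as the root mean square difference of their log2 CPM, each centred on its own mean over the 6 libraries. It was 0.057 on the log2 scale. Among the 12944 genes compared, those above a low-level limit, Spint1 was nearest to St14, and St14 was nearest to Spint1. Nfe2l3, a transcription factor, was also among the 3 genes nearest to each, at 0.133 from St14 and 0.089 from Spint1. Nearest to F2rl1 were Edn1, the peptide endothelin-1 (0.0997), Hspa2, a heat shock protein (0.106), and Serpinb5, the epithelial serpin maspin (0.133). Edn1 measured 3.09, 3.65 and 2.99 CPM across wild-type replicates and 12.6, 8.21 and 9.64 CPM across knockout replicates. Knockout replicate 2 was lowest of the knockouts in CPM, as for F2rl1 and also for St14, Spint1 and Prss8. Prss8 lay nearest to the matrix genes Lamb1 (0.042), Fras1 (0.059) and Col18a1 (0.064), for which, as for Prss8, replicate 2 was the highest wild-type library. Spint2 lay nearest to Cpxm2 (0.044), Pik3r4 (0.048) and Mthfd1 (0.052), and a gene that varies this little has many near neighbours. These distances describe 6 libraries and include the difference between the genotypes.

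Epithelial genes as a group were measured beside the pathway, since these are genes of epithelium and the samples are whole tissue. In such samples a larger share of epithelial cells and more RNA per cell cannot be told apart. Over 20 epithelial genes, among them Epcam, Cdh1, Krt5 and Krt14 and none of the 5 described here, the average log2 CPM stood at 5.17, 5.89 and 5.33 in wild-type libraries and at 6.22, 5.85 and 6.07 in those of the knockout. Wild-type replicate 2 thus lay within the knockout range. Of these 20 genes, 1 rose and 0 fell (edgeR), against 0.348% and 0.0827% of all tested genes. Without overlap, 10 were higher (6.77% of all tested genes), and the median log2 fold change of the 20 was 0.65. Their summed level was 1049 to 2098 TPM in wild-type and 1960 to 2758 TPM in knockout libraries. Over 10 periderm genes, which mark the flat outermost cell layer of embryonic skin, the average was 3.87, 4.38 and 3.80 against 5.81, 5.05 and 5.49. The lowest knockout value was in replicate 2, where F2rl1 and the average of the 20 epithelial genes were also lowest among the knockouts. Of these 10 genes 6 rose and 1 fell, against 0.348% and 0.0827% of all tested genes. The one that fell was Grhl3, the targeted gene, which is on that list. The keratin gene Krt4, also on the list, was lower without overlap and without passing, from 55.8 ± 24.3 to 16.6 ± 5.06 CPM (SD, n = 3). Its log2 fold change was -1.75 (adjusted p = 0.0785, edgeR), and it was chosen after its values were seen. Over 7 genes of the spinous layer, 0 were called and the median log2 fold change was 0.03, against 0.45 over 10 basal genes, of which 0 were called. The part of these shifts in the values of the 5 genes was not tested beyond the ratios that follow.

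Relative to the 20 epithelial genes of the same library, St14, Spint1 and F2rl1 were higher in every knockout than in every wild-type library, as were 0.738% of all genes. On this scale 35.7% of all genes were lower in every knockout library, and the median difference over all genes was -0.58. St14 stood at -1.54, -1.48 and -1.32 in wild-type and at -0.86, -0.80 and -0.96 in knockout libraries, as log2 CPM minus the epithelial mean, a difference of 0.57 (exact two-sided permutation p = 0.1). Spint1 differed by 0.49 and F2rl1 by 0.97 (exact p = 0.1 for each). Prss8 was lower in every knockout library on this scale, at -3.86, -3.57 and -3.59 against -3.34, -3.31 and -3.38, a difference of -0.33 (exact p = 0.1), which is smaller than that of the median gene. Within the wild-type libraries the SD of this value was 0.0326 for Prss8 and 0.382 for F2rl1. Spint2 differed by -0.34 with overlapping groups (exact p = 0.2). With 10 basal epidermis genes in place of the 20, the differences were 0.56, 0.48, 0.96, -0.34 and -0.34 for St14, Spint1, F2rl1, Prss8 and Spint2. In the edgeR fit with libraries scaled on the 20 genes, which called 3.12% of all genes and 0.437% as higher, none of the 5 genes was called: F2rl1 had a log2 fold change of 0.96 (adjusted p = 0.0686), St14 0.57 (0.110), Spint1 0.49 (0.155), Prss8 -0.32 (0.410) and Spint2 -0.34 (0.286). That scaling moved the median of all genes to -0.62.

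**Figure D4:**
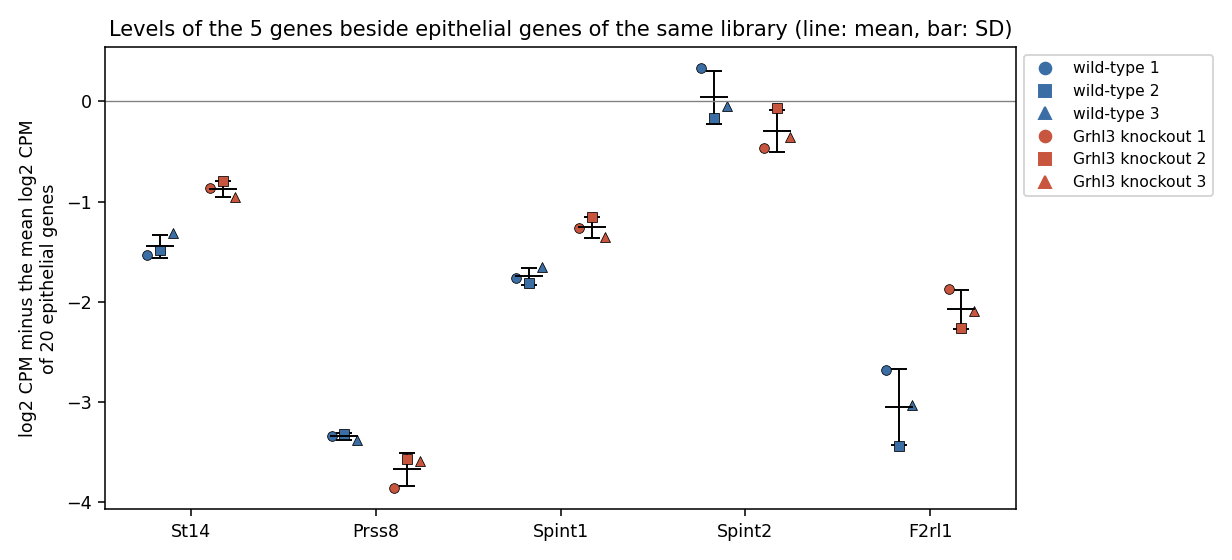
Log2 CPM of each gene minus the mean log2 CPM of 20 epithelial genes in the same library (y axis), by gene (x axis), with wild-type in blue, knockout in red, a line at the mean and bars of 1 SD (n = 3). St14, Spint1 and F2rl1 are higher in all knockout libraries, Prss8 is lower in all of them, and Spint2 overlaps.

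Other features of the libraries moved with genotype as well. Y-linked expression was low in wild-type replicate 1 and in all knockout libraries. That wild-type library, which also had the shortest transcripts, had the lowest St14 and Spint1 of the 6. With a term for Y-linked expression the log2 fold changes were 1.57 for St14, 1.41 for Spint1 and 1.49 for F2rl1 (adjusted p = 0.0385, 0.0483 and 0.109, edgeR), in a fit where wild-type replicate 1 alone separates the terms. Without wild-type replicate 1, genotype and Y-linked expression cannot be told apart. Liver genes were high in knockout replicates 1 and 2 and not in knockout replicate 3, and their part in the values of the 5 genes was not tested. All 5 cartilage genes had negative log2 fold changes with 0 called (median -0.45), and the part of this shift was not tested either.

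Reads were next followed by transcript, with the caution that kallisto divides shared reads between isoforms. F2rl1 has a single transcript in the data. For St14 the coding transcript St14-201 held 92.6%, 86.9% and 85.6% of the TPM of the gene in wild-type and 94.96%, 95.05% and 93.95% in knockout libraries. The retained-intron transcript St14-206 held 5.19%, 9.13% and 10.3% against 2.61%, 3.61% and 4.41%, so its share was lower in every knockout library. St14-201 had a log2 fold change of 1.26 (SE 0.20) and St14-206 one of -0.12 (SE 0.46), and the difference between them was not tested. Spint1 was divided between the coding transcripts Spint1-201, at 36.6% to 59.9%, and Spint1-203, at 34.0% to 55.1%, with log2 fold changes of 1.24 (SE 0.30) and 0.91 (SE 0.19). Spint2-202 held 91.0% to 97.0% of Spint2. The division of Prss8 was unstable: Prss8-202 was given 49.1% and 50.2% in wild-type replicates 1 and 3, 3.45% in knockout replicate 1, and less than a hundredth of a percent or 0 elsewhere, so only the sum over the gene was used. Of 10 transcripts of the 5 genes that passed the filter, 0 were called per transcript by edgeR, where 0.00213% of 47052 transcripts were called, and 4 had an unadjusted p under 0.05, all higher, against 1.71% of all transcripts higher and 2.86% in either direction. The exons of Prss8 share 122 bases, 6.59% of their length, with exons of Kat8 on the opposite strand, and since the strand setting of the counting is not given in the sources used here, reads in those bases are uncertain.

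Beyond the 5 genes, the wider pathway was read from lists by role. Each list count stands beside the shares over all tested genes, of which 0.348% were called higher and 0.0827% lower. At an unadjusted p under 0.05 these shares were 3.81% and 3.41%. Among 14 tested membrane-anchored serine proteases related to matriptase and prostasin, 0 rose and 0 fell (edgeR), with 1 higher and 1 lower at an unadjusted p below 0.05, and their median log2 fold change was 0.06. These 2 were Tmprss11f, from 0.170 ± 0.0607 to 0.377 ± 0.0434 CPM, and Tmprss11g, from 0.499 ± 0.0660 to 0.238 ± 0.0752 CPM (SD, n = 3), with adjusted p of 0.470 and 0.464 (edgeR). Prss41, next by p-value, had a log2 fold change of -0.53 (adjusted p = 0.785, edgeR).

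Of 9 other Kunitz and related inhibitors tested, 0 were called with edgeR and 1 was higher at an unadjusted p below 0.05, with a list median of 0.06. That 1 was Spink5, a multi-domain inhibitor of epidermal kallikreins, which measured 1.45, 3.01 and 3.19 CPM across wild-type replicates and 31.0, 8.61 and 18.5 CPM across knockout replicates. Its groups did not overlap, and its log2 fold change was 2.92 (SE 0.47, adjusted p = 0.0505, edgeR). Wfikkn2 and Aplp2, both with Kunitz domains, had log2 fold changes of 0.17 and 0.17 (adjusted p = 0.880 and 0.912, edgeR).

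Among 15 tested substrates of the proteases and partners of these substrates, Cldn7 rose and 0 fell, and the median was 0.29. At an unadjusted p below 0.05, 5 were higher and 0 lower, against 3.81% and 3.41% of all genes. Cldn7 encodes a claudin that EpCAM, a matriptase substrate, holds at the membrane. It measured 3.41, 2.93 and 2.45 CPM across wild-type replicates and 7.98, 6.91 and 6.31 CPM across knockout replicates (log2 fold change 1.27, SE 0.19, adjusted p = 0.0337, edgeR). Epcam itself, named after its values were seen, went from 42.2 ± 9.05 to 70.8 ± 6.06 CPM (SD, n = 3) and did not pass (adjusted p = 0.127, edgeR). Epcam and Cldn7 also belong to the 20 epithelial genes used as a scale.

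On the receptor side, 17 genes for the other PARs and for G proteins and effectors that PARs signal through were tested, and 0 were called or had an unadjusted p under 0.05. Their median log2 fold change was -0.01. The thrombin receptor gene F2r, named after its values were seen, measured 115 ± 2.87 CPM across wild-type and 118 ± 3.10 CPM across knockout replicates (SD, n = 3). The arrestin genes Arrb1 and Arrb2, which take up activated receptors, had log2 fold changes of 0.16 and -0.17 (adjusted p = 0.911 and 0.918), and Plcb3, a phospholipase downstream of PARs, one of 0.13 (adjusted p = 0.918, edgeR).

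Of 9 tested genes listed as cutting PAR2 or as helping to, Klk5 rose and 0 fell, and the median was 0.63. At an unadjusted p below 0.05, 3 were higher, against 3.81% of all genes. F3, 1 of these 3 and named after its values were seen, encodes tissue factor, a cofactor and not a protease. Klk5, a trypsin-like kallikrein of the outer epidermis, measured 0.555, 1.12 and 0.633 CPM across wild-type replicates and 4.85, 2.51 and 4.42 CPM across knockout replicates (log2 fold change 2.33, SE 0.36, adjusted p = 0.0419, edgeR). Klk6, another kallikrein able to cut PAR2, was too low for the filter, at 1, 1 and 0 counts against 33, 7 and 30, and was named after its values were seen. It passed in the fit with no filter (adjusted p = 0.0472, edgeR), where 0.381% of 23642 genes were called higher. Knockout replicate 2 was the lowest knockout library for Klk5, Klk6, Spink5 and F2rl1 alike. In CPM it was also lowest for St14, Spint1 and Prss8 and for the mean of the 20 epithelial genes, though not for Spint2. In TPM, knockout replicate 3 was lowest for St14 and Spint1. The share of all genes with replicate 2 lowest was not computed. The mast cell tryptase gene Tpsb2, also in this list, had a log2 fold change of 0.92 (adjusted p = 0.771, edgeR). Tpsab1, another tryptase gene of the list, had one of -0.05 (adjusted p = 0.9996, edgeR). Both were named after their values were seen. A set of 6 mast cell genes summed to 112 to 118 TPM in wild-type and 90.9 to 205 TPM in knockout libraries. Omitting wild-type 3, knockout 1 or knockout 3 left neither Cldn7 nor Klk5 called, with 0 genes of these lists rising. Those fits called 0.0525%, 0.0931% and 0.116% of all genes higher, in that order. In the fit that omitted wild-type 1, 5 list genes rose, and 0.789% of all genes were called higher. Cldn7 was also not called when wild-type 2 or knockout 2 was omitted. With all libraries kept, neither was called with offsets for effective transcript length, limma on log2(TPM + 0.1), a replicate block or the Y-linked term. Klk5 was also not called with limma-voom, nor Cldn7 with scaling on the 20 epithelial genes.

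**Figure D5:**
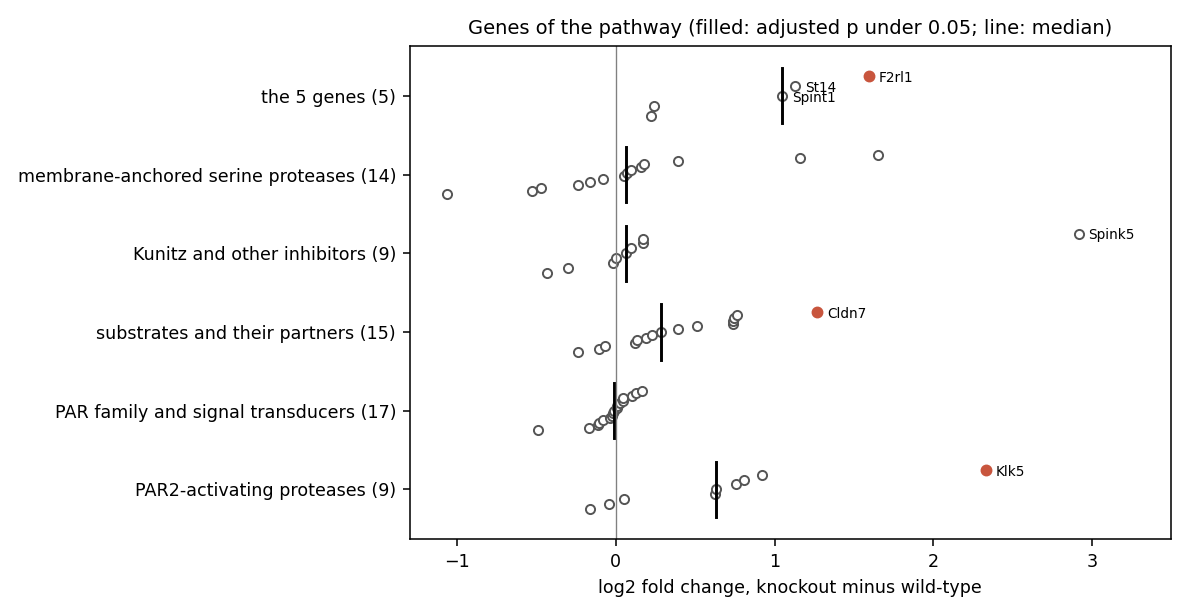
Log2 fold change (x axis, knockout minus wild-type) of each tested gene of the pathway lists (y axis, number tested in brackets), with filled points for genes called at an adjusted p under 0.05 and a vertical line at the list median. F2rl1, Cldn7 and Klk5 are the filled points, and most of the 17 genes of PAR signalling lie near 0.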

How the data were processed

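FastQC, kallisto and the build mm10 are named in the submitters' processing notes; the kallisto version is not given in the sources used here. The deposited tables hold estimated counts, not normalized, and TPM for 111462 transcripts, per the file headers. The authors' deposited comparison table gives log2 fold changes, a likelihood ratio score and p-values with FDRs, per the file headers. Of the transcripts, 110203 matched GENCODE M21 (mm10) by unversioned identifier. Estimated counts were summed per gene and rounded, and TPM was summed per gene.

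Genotypes were compared with the quasi-likelihood test of edgeR 4.0.16 (R 4.3.3), with TMM scaling, genotype as the only term and the filterByExpr filter (count 10, total 15), leaving 16938 genes. Calls were made at an FDR under 0.05, and intervals use the moderated t quantile of that fit. Log2 CPM used a prior count of 2. On counts simulated for these 16938 genes, 22.8% of genes raised 1.5-fold, 63.3% of those raised 2-fold and 94.7% of those raised 4-fold were recovered, and 6.6% of calls were false. Alternatives included DESeq2 1.42.0 and limma 3.58.1. The members, lists and tests were chosen with earlier results of these data known. Named genes are the 5, all called genes of each pathway list or else the 3 with the smallest p-values, the 3 nearest genes in profile to each, and Grhl3; others are marked or are given as examples of a marker list, and 1 gene near in profile is not reported here. No molecular identifiers are named, so reads may repeat a molecule, and depth limits counting error only.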

Additional observations from a re-analysis of the deposited data

How the results depend on the processing

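St14, Spint1 and F2rl1 had positive log2 fold changes in all 20 alternatives, and F2rl1 passed the threshold in 13 of them and St14 and Spint1 in 7 each. Prss8 and Spint2 passed in 0 of 20, and they turned negative with pan-epithelial scaling alone (-0.32 and -0.34). The number of the 5 genes called was 1 in the edgeR fit, 0 with pan-epithelial scaling or limma on log2(TPM + 0.1), 2 with the Y-linked term, and 3 with no filter, DESeq2, the likelihood ratio test or the transcript length term. Over all genes these fits called higher 0.348% (edgeR), 0.437% and 0.189%, 0.254%, and 0.381%, 1.25%, 1.09% and 0.968%, in that order. F2rl1 lost its call with pan-epithelial scaling (log2 fold change 0.96), TPM values (1.46) and the Y-linked term (1.49). St14 and Spint1 gained calls with no filter (1.14 and 1.06), DESeq2 (1.13 and 1.05), the likelihood ratio test (1.13 and 1.05), the Y-linked term (1.57 and 1.41) and the length term (1.23 and 1.13). The cause of these shifts was not tested.

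With 1 library left out, the number of the 5 genes called ran from 0 to 3, and the log2 fold changes from 0.96 to 1.35 for St14, 0.90 to 1.25 for Spint1 and 1.39 to 1.76 for F2rl1, while 0.0525% to 0.789% of all genes were called higher. Called genes of the pathway lists then ran from 0 to 5 higher, against 2, and the only lower call, 0 or 1, was the targeted gene Grhl3. With no library left out, 0 member transcripts were called, as in each of 7 alternatives. The wild-type and knockout libraries share replicate numbers, and same-numbered libraries deviated from their group means with correlations of -0.24, -0.09 and -0.16. These values gave no sign that the numbers pair the libraries, and with 3 libraries per group they cannot exclude it. With the replicate number as a block, F2rl1 kept its call (adjusted p = 0.038, edgeR), 1 of the 5 genes was called, and 0 list genes rose.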

Other observations

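Tmprss11e, a membrane-anchored serine protease of the same class as matriptase, was too low in counts for the main filter and was named after its values were seen. It had 1, 3 and 1 counts in wild-type and 23, 8 and 37 counts in knockout libraries and did not pass (adjusted p = 0.0759, edgeR, no filter). Knockout replicate 2 was the lowest knockout library, as it was for F2rl1, Klk5, Spink5 and the mean of the 20 epithelial genes. Ambp, a plasma protein with Kunitz domains made by the liver and likewise named after its values were seen, had 0, 2 and 1 counts in wild-type and 36, 71 and 3 counts in knockout libraries (adjusted p = 0.134, edgeR, no filter), and it was high in the libraries where the liver genes were high.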
